A study of Drosophila melanogaster with 2 samples.

Results

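Membrane proteins and secreted proteins travel through the cell in vesicles, and the genes named Vps, Sec, Rab, Snx, Arl and Arf encode much of the machinery that forms, targets and fuses these carriers. Small GTPases of the Rab, Arf and Arl families mark membranes and recruit effectors, coat proteins such as the Sec components of COPII shape vesicles, and tethering and sorting complexes built from Vps, Sec and Snx proteins capture or route them. Most of these proteins work in nearly all cells, while a few, such as Rab3 at synapses, serve special tissues. In the embryo this machinery carries out cellularisation, secretion of cuticle and matrix, and the endocytosis of signalling receptors. The genes described here were the protein-coding genes of the Ensembl annotation whose symbol starts with 1 of those 6 names directly followed by a digit, with Sec13 left out, which gave 93 of 13968 protein-coding genes on the main chromosomes. The rule uses names and no measured value, but it was set with earlier results of these data known.

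The measurements were chromatin immunoprecipitations with sequencing from a Drosophila melanogaster line that stably carried CG17912, the gene also known as BuGZ, fused at its C terminus to GFP. Whole embryos of pooled sexes, collected at 0 to 16 h of age, formed 1 group of 2 replicates (1 and 2), and no untagged or untreated group was analysed here. The submitters' descriptions call both libraries input controls, while the antibody label names CG17912 and the libraries are the parents of the peak lists. They were treated as immunoprecipitates here, and that reading was not settled by the files. BuGZ is a zinc finger protein known as a partner of the spindle checkpoint protein Bub3, and the comparison made here concerns how often, and how strongly, the tagged protein was recovered at trafficking gene promoters. Because all embryonic tissues were mixed, recovery in fewer cells and lower recovery per cell cannot be told apart. The deposited lists give no read depth, so intervals below cover counting error over genes alone, and p-values were not computed because 1 group of 2 libraries offers no test between conditions.

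Trafficking genes carried reproducible peaks at their promoters at about the rate of 1 gene in 4. At 23 of the 93 genes a reproducible summit fell no more than 250 bp from a transcription start site, or TSS (24.7%, 95% Wilson interval 17.1 to 34.4), against 11.6% of all protein-coding genes. Replicate 1 alone, by its 2413 regions of highest signal value, put a region at 19 of the 93 (20.4%, against 11.2% of protein-coding genes), and replicate 2 alone at 21 (22.6%, against 11.4%). No test of the list was made, and the shares stand as counts beside the background. Members had no more start sites than other genes, with a median of 1 distinct TSS in both sets and means of 1.37 and 1.41. Before the cut to reproducible peaks, a candidate region of the pooled list lay at the promoters of 71 members (76.3%, against 47% of protein-coding genes), one of replicate 1 at 57 (61.3%, against 42.1%), and one of replicate 2 at 71 (76.3%, against 46.4%). Candidate lists stop at 30000 regions and are named in the deposited texts as peaks together with background, so a low rank carries little weight.

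The 23 genes with a peak were Arl1, Arf1, Rab1, Rab2, Rab7, Rab8, Rab30, Rab3GAP1, Sec3, Sec5, Sec10, Sec23, Sec24CD, Sec63, Snx3, Snx21, Snx27, Vps13D, Vps16A, Vps33B, Vps36, Vps45 and Vps52. Among the strongest regions the lists differed. Among the 1206 reproducible peaks of highest signal value, 6 members had a peak (6.45%, against 6.04% of protein-coding genes), and among the first 500 pooled regions only Arl1 did (1.08%, against 2.44%). The first 1000 regions of replicate 1 held 5 members (5.38%, against 4.93% of protein-coding genes), whereas those of replicate 2 held 10 (10.8%, against 5.01%). Farther down, the members' share exceeded the background share at the cut-offs read off here. The first 5000 pooled regions reached 37 members (39.8%, against 21.3% of protein-coding genes), and the first 10000 reached 55 (59.1%, against 31.9%). The signal value is the authors' own measure for each region, on a scale that is not stated, and it is compared here only within a list. Its median over the 23 member peaks was 121 (range 101 to 424), and over the gene and peak pairs of all protein-coding genes it was 135 (range 101 to 1538).

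**Figure D1:**
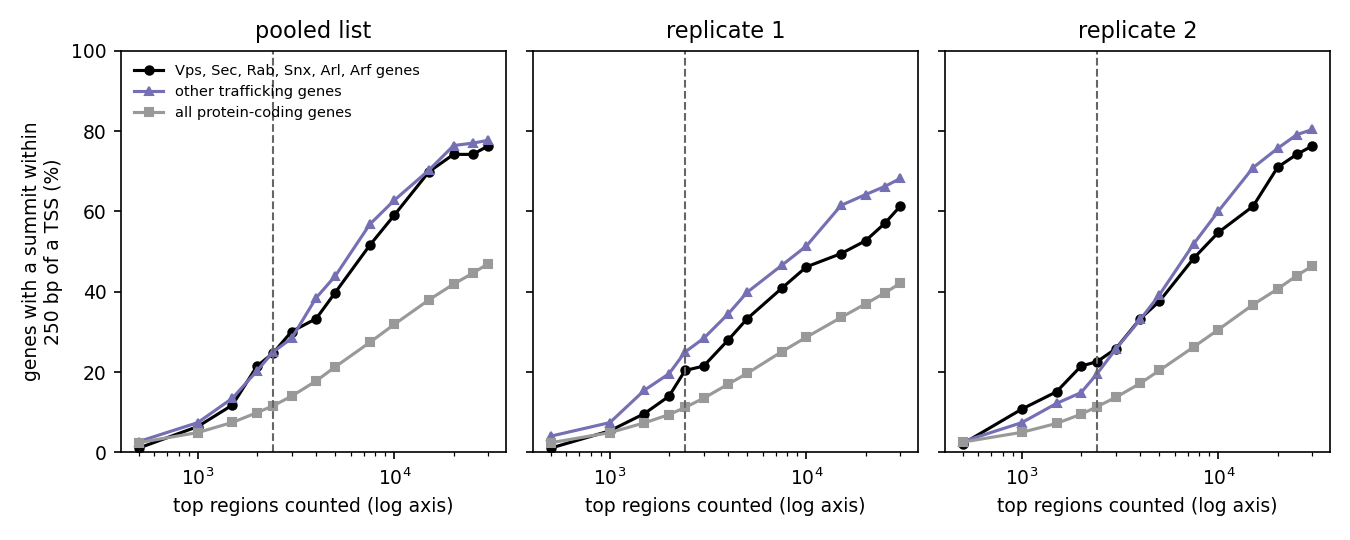
Percentage of genes with a region summit within 250 bp of a TSS (vertical axis) against the number of top regions counted by signal value (log axis), for the pooled list and each replicate; the dashed line marks 2413 regions. Black circles are the 93 Vps, Sec, Rab, Snx, Arl and Arf genes, triangles 148 other trafficking genes and grey squares all 13968 protein-coding genes; the curves lie close at 500 regions (1.08% of members against 2.44%) and lie apart at 5000 (39.8% against 21.3% in the pooled list).

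The highest peak among the 93 genes lay at Arl1 (FBgn0000115), a Golgi GTPase that recruits golgin tethers. It spanned chr3L:15982872-15983135 (dm6), with a signal value of 424 and rank 66 of the reproducible list. Its region ranked 65 in replicate 1 (signal value 238) and 92 in replicate 2 (signal value 183), so both libraries placed it among their strongest sites. The summit lay 139 bp upstream of the Arl1 TSS in intergenic sequence and 127 bp upstream of brm, the ATPase of the Brahma remodelling complex, which is transcribed the other way from a TSS 266 bp distant. The peak can therefore not be assigned to Arl1 rather than brm. Arf1 (FBgn0010348), the GTPase that recruits the COPI coat, had a much weaker peak at rank 1281 (signal value 131), with ranks of 2003 and 1414 in replicates 1 and 2. Its summit lay 79 bp downstream of the Arf1 TSS, in the Arf1 5' UTR, and 48 bp upstream of CG11109. Of the 9 Arf and Arl GTPases, these were the 2 with a peak (22.2%, against 11.6% of protein-coding genes). Arl8, which moves lysosomes, and Arl4 had pooled candidates at ranks 3587 and 4738, and Arf4 had no region within 250 bp of a TSS in the pooled list or in either replicate.

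Among the 23 Rab GTPases outside the X-linked Rab9 paralogs, 5 had a peak (21.7%, against 11.6% of protein-coding genes). These were Rab1, Rab2, Rab7, Rab8 and Rab30. Rab8, which directs exocytic carriers to the plasma membrane, had the strongest, at rank 727 (chr3L:19870917-19871252, signal value 162), with ranks of 1056 in replicate 1 and 908 in replicate 2. Its summit was 7 bp upstream of the TSS and was shared with Usp32, at 54 bp. Rab30, a Golgi Rab, ranked 1786 (signal value 114), and its replicates differed more, at 1055 and 5221. Rab1, which acts between the endoplasmic reticulum and the Golgi, ranked 1842 (signal value 113), from rank 6762 in replicate 1 and rank 713 in replicate 2. The Rab1 summit lay 7 bp inside the transcript and no other gene shared it. Rab7, the late endosomal Rab, ranked 1882 (signal value 112) with replicate ranks of 1407 and 3266, and Rab2, a Golgi Rab, ranked 1998 (signal value 109) with 3026 and 1555. Of these 5 peaks, the one at Rab8 alone was among the 2413 highest regions of both replicates.

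The other 18 of these 23 Rab GTPases had no reproducible promoter peak, and some of them are given here as examples, picked with their values known. Rab11, the recycling endosome Rab, had a pooled candidate 45 bp upstream of its TSS at rank 4050, and replicate 2 placed it at 2341, just inside that replicate's first 2413 regions, against 7743 in replicate 1. Rab5 of early endosomes ranked 8025 in the pooled list, and Rab4 had a region in replicate 2 alone. Rab32 (rank 2513) and Rab18 (rank 4663) also had pooled candidates. Among genes of regulated secretion, Rab27 ranked 6271, Rab26 appeared in replicate 1 alone (rank 26028), and neither Rab3, the synaptic vesicle Rab, nor its exchange factor Rab3-GEF had a region in any list. The 5 X-linked paralogs Rab9D, Rab9Db, Rab9E, Rab9Fa and Rab9Fb also had none. Whether reads could be placed uniquely in those near copies was not tested. Among the 5 regulators and interactors, Rab3GAP1, the catalytic subunit of the Rab3 GTPase-activating complex, had a peak at rank 1778, with replicate ranks of 1298 and 3469, while its partner Rab3-GAP had a low pooled candidate (rank 14909).

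The exocyst, which tethers secretory vesicles to the plasma membrane, had peaks at 3 of its 6 Sec-named subunits. That is 50%, against 11.6% of protein-coding genes, in a set too small for the share to be read. Sec10 ranked 1272 (chr3R:24134621-24134956, signal value 131), with replicate ranks of 1952 and 1337, and its summit 42 bp upstream of the TSS was not shared with another gene. Sec5 ranked 1555 (signal value 121), from 3404 in replicate 1 and 1272 in replicate 2. The Sec3 peak ranked 1947 (signal value 110), from 6001 and 998. Its summit lay 231 bp upstream of Sec3 and only 29 bp upstream of COX7B, a respiratory chain subunit. The matched replicate 2 summit lay over 250 bp from the Sec3 TSS, so replicate 2 alone had no region at Sec3 by the promoter rule. Sec6 and Sec8 lay just outside the list, at pooled ranks 2430 and 2842, whereas Sec15 had only a low region in replicate 2 (rank 26791). Sec6 at a signal value of 101 and Vps45, the last member inside the list, at the same rounded value of 101 and rank 2411, show how close members on either side of the cut-off were.

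At the endoplasmic reticulum, the inner COPII coat was represented by Sec24CD and Sec23, which bind each other on the vesicle. Sec24CD ranked 1488 (signal value 124), with ranks of 4476 in replicate 1 and 631 in replicate 2. The Sec23 peak ranked 2220 (signal value 105), with 1113 in replicate 1 and 13263 in replicate 2. That was the widest gap among the 22 member peaks with a region in both lists. The summit of this peak was 248 bp from Sec23 but 79 bp from MTA1-like. Both matched replicate summits lay over 250 bp from the Sec23 TSS, so neither replicate alone had a region at Sec23 by the promoter rule. Sec16, which organises exit sites, ranked 5008, and Sec24AB and Sec31, of the inner and outer coat, ranked 16433 and 28149 in the pooled list. Of the 4 translocon genes, Sec63, a partner of the protein-conducting channel, had a peak at rank 1745, with replicate ranks of 2177 and 1756. The channel subunits Sec61beta and Sec61alpha followed in the pooled list at 2829 and 4240, and Sec61gamma at 6213. Sec61beta stood at 1503 in replicate 1 and 1798 in replicate 2, inside the first 2413 regions of each, although its pooled region was not in the reproducible list. The summits differed, at 45 bp upstream of the TSS in replicate 1 and 70 bp downstream in replicate 2.

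Among the Vps-named genes of endosomal and lysosomal complexes, peaks lay at 2 of 6 HOPS, CORVET and CHEVI genes (33.3%) and 1 of 9 ESCRT genes (11.1%). They lay at 1 of 4 GARP and EARP genes (25%) and none of the 3 retromer genes. The share of all protein-coding genes was 11.6%. The ESCRT share was near it, and sets of 3 to 6 genes are too small to be read against it. Subunits under other names are given with the further list of trafficking genes. Vps33B (rank 631, signal value 175), a fusion regulator of the Sec1 and Munc18 family, ranked 855 in replicate 1 and 4064 in replicate 2 by the nearest region, while a stronger replicate 2 region at rank 282 had its summit 176 bp away. Vps16A (rank 1221, signal value 134), a core subunit of the HOPS and CORVET tethers, ranked 2226 and 723. The Vps16A summit lay 57 bp upstream of its TSS and 58 bp upstream of TrpRS, a tRNA synthetase, so that it stood midway between them. Vps11, Vps39 and Vps8 of the same tethers had pooled candidates at ranks 14698, 13704 and 6935. In the ESCRT machinery, which sorts ubiquitinated cargo, Vps36 of ESCRT-II (rank 1833, signal value 113; 2234 and 1744 in the replicates) was the only 1 of 9 members with a peak, and Vps28 of ESCRT-I lay just outside at rank 2494. Vps52, a subunit of the GARP and EARP tethers, ranked 2313 (signal value 103), with no region within 200 bp in the replicate 1 list and rank 835 in replicate 2. Its summit was 244 bp from Vps52 and 3 bp inside Elp4. Vps51 and Vps53 of the same tethers had no region in any list. Vps45, a regulator of endosomal SNAREs, had its summit 248 bp from its own TSS and 3 bp from that of CG9393, with ranks of 4572 and 1840.

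Sorting nexins had peaks at 3 of 7 genes (42.9%, against 11.6% of protein-coding genes), again a small set. Snx21 ranked 549 (chr2L:2765660-2765801, signal value 185), with 527 in replicate 1 and 335 in replicate 2, and its summit 59 bp upstream of the TSS was not shared; the replicate 2 summit lay 141 bp from it. Snx3, which returns the Wnt carrier Wntless with retromer, ranked 740 (signal value 161), with 918 and 595, but its summit lay 22 bp from Vha55, a vacuolar proton pump subunit, and 180 bp from Snx3. Snx27, known in mammals as a retromer cargo adaptor, ranked 1472 (signal value 124), with 2358 and 946, from an unshared summit 11 bp upstream. None of the 3 retromer genes had a reproducible peak: Vps26 and Vps29 had pooled candidates at ranks 8504 and 5331, and Vps35 had a region in replicate 2 alone. Vps29 stood at 2347 in replicate 1, inside its first 2413 regions, but at 24382 in replicate 2. Vps13D, a lipid transfer protein needed for mitochondrial health, ranked 588 (chr3L:12755062-12755169, signal value 179), with 903 and 623, and its summit was 44 bp downstream of the TSS in its 5' UTR. Vps13 ranked 4853 and Vps13B 11081.

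**Figure D2:**
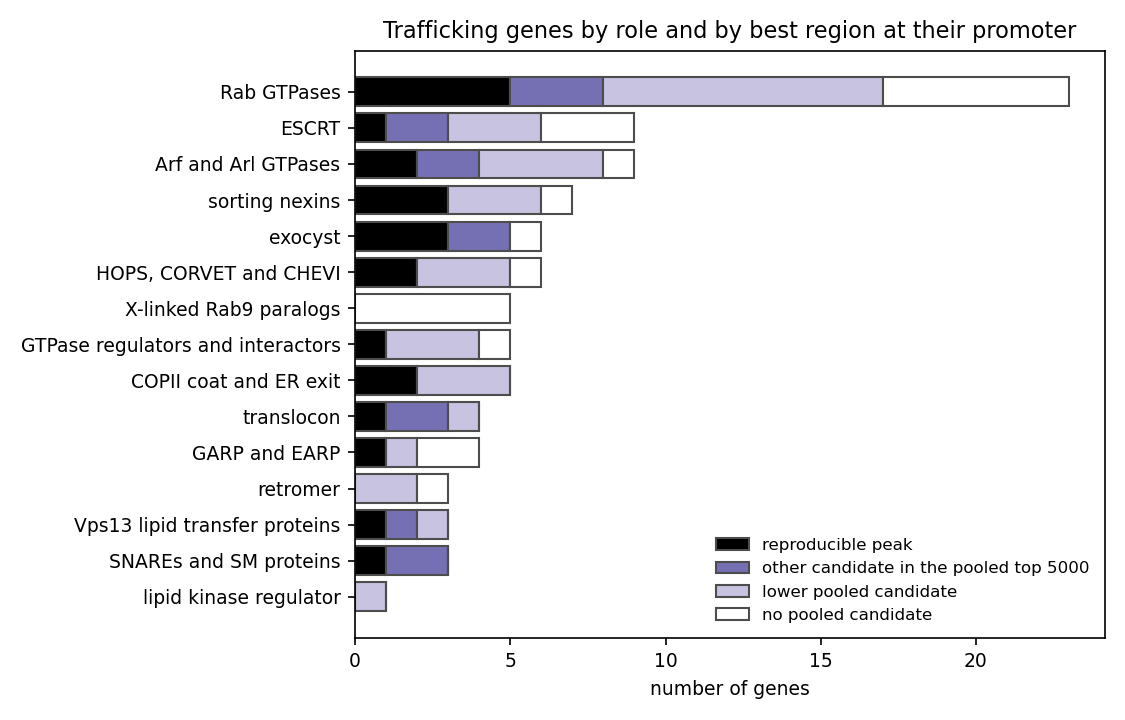
Number of trafficking genes in each role (bar length), split by the best region within 250 bp of a TSS: reproducible peak, other candidate among the first 5000 pooled regions, lower pooled candidate, or none. Peaks are spread over most roles, from 1 of 9 ESCRT genes to 3 of 7 sorting nexins and 3 of 6 exocyst genes, against 11.6% of protein-coding genes. None lies at the 3 retromer genes, the 5 X-linked Rab9 paralogs or the 1 lipid kinase regulator. Most roles hold few genes, and none was tested.

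The replicates placed the member peaks unequally. Of the 23 peaks, 22 had a region within 200 bp in the replicate 1 list and 23 in the replicate 2 list. The nearest such region was among the first 2413 of both replicates for 11 peaks, of replicate 1 only for 5 and of replicate 2 only for 7. Of the 22 with both, 16 ranked higher in replicate 2, with median ranks of 1304 in replicate 2 (range 92 to 13263) and 1977 in replicate 1 (range 65 to 6762). The same counts over all reproducible peaks are not given here, so this split is not read as particular to trafficking genes. The peaks at Arl1, Snx21, Vps13D, Rab8 and Snx3 held ranks within the first 1056 regions of each library. Those at Sec24CD, Rab1, Sec3 and Vps52 rested mainly on replicate 2, and those at Sec23 and Rab30 mainly on replicate 1. These regions were matched to the peak and not to the gene. At Sec3 the replicate 2 region, and at Sec23 the regions of both replicates, had summits over 250 bp from the trafficking gene's TSS.

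**Figure D3:**
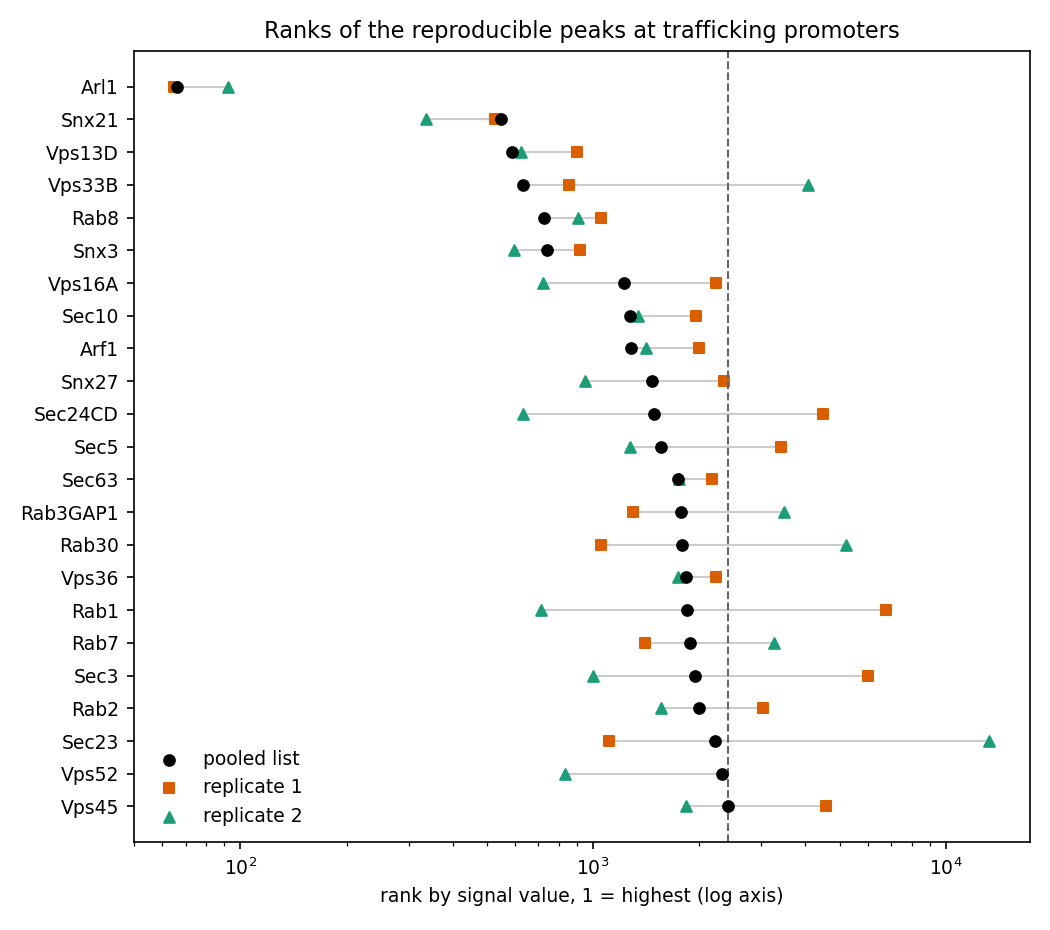
Rank by signal value (log axis, 1 is highest) of each of the 23 reproducible peaks at trafficking promoters in the pooled list (circles), replicate 1 (squares) and replicate 2 (triangles); grey lines join the values of 1 gene and the dashed line marks rank 2413. Arl1 stands apart at ranks 65 to 92, and points to the right of the line are replicate regions below the first 2413.

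Shared promoters made up most of these peaks. At 16 of the 23 (69.6%) another gene, in every case on the opposite strand, had a TSS within 250 bp of the same summit, against 45.7% of the gene and peak pairs of all protein-coding genes. The other gene was the nearer in 9, namely at Arl1, Arf1, Rab30, Sec3, Sec23, Snx3, Vps36, Vps45 and Vps52. No other TSS was nearer than the member's in 60.9% of the 23, against 78.3% of the gene and peak pairs of all protein-coding genes. At 13 of the 16 the summit was upstream of both start sites, and at Arf1, Rab2 and Vps52 it lay inside 1 of the genes. The paired start sites were 61 to 327 bp apart head to head, except at Arf1, where the genes overlap at their 5' ends (gap of -31 bp). The neighbours included the splicing factor Caper at Rab30, the Golgi tether subunit Cog3 at Sec5 and Liprin-beta at Vps36. Counting only the gene whose TSS was nearest to the summit left 14 members (15.1%, against 9.13% of protein-coding genes). Counting only peaks that no other gene shared left 7, at Snx21, Vps13D, Vps33B, Sec10, Snx27, Sec24CD and Rab1 (7.53%, against 6.31%), a share near the background.

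Trafficking genes were also placed more often at divergent promoters, where another gene starts on the opposite strand within 1000 bp upstream. These made up 57 of the 93 members (61.3%) and 39.6% of protein-coding genes. Of the 57, 19 had a peak (33.3%, 95% Wilson interval 22.5 to 46.3), against 19.5% of divergent protein-coding genes. Of the other 36, 4 had one (11.1%, interval 4.41 to 25.3), against 6.44% of other protein-coding genes. In position the member peaks were like the rest: 19 of 23 summits (82.6%) lay upstream of the member's TSS, against 80.5% for all protein-coding pairs, with medians of -76 and -63 bp. Of the 23 summits, 17 were intergenic, 5 lay in a 5' UTR (of Vps13D, Arf1, Rab1, Rab2 and Elp4) and 1, at Sec24CD, in an exon of the antisense RNA asRNA:CR44115.

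**Figure D4:**
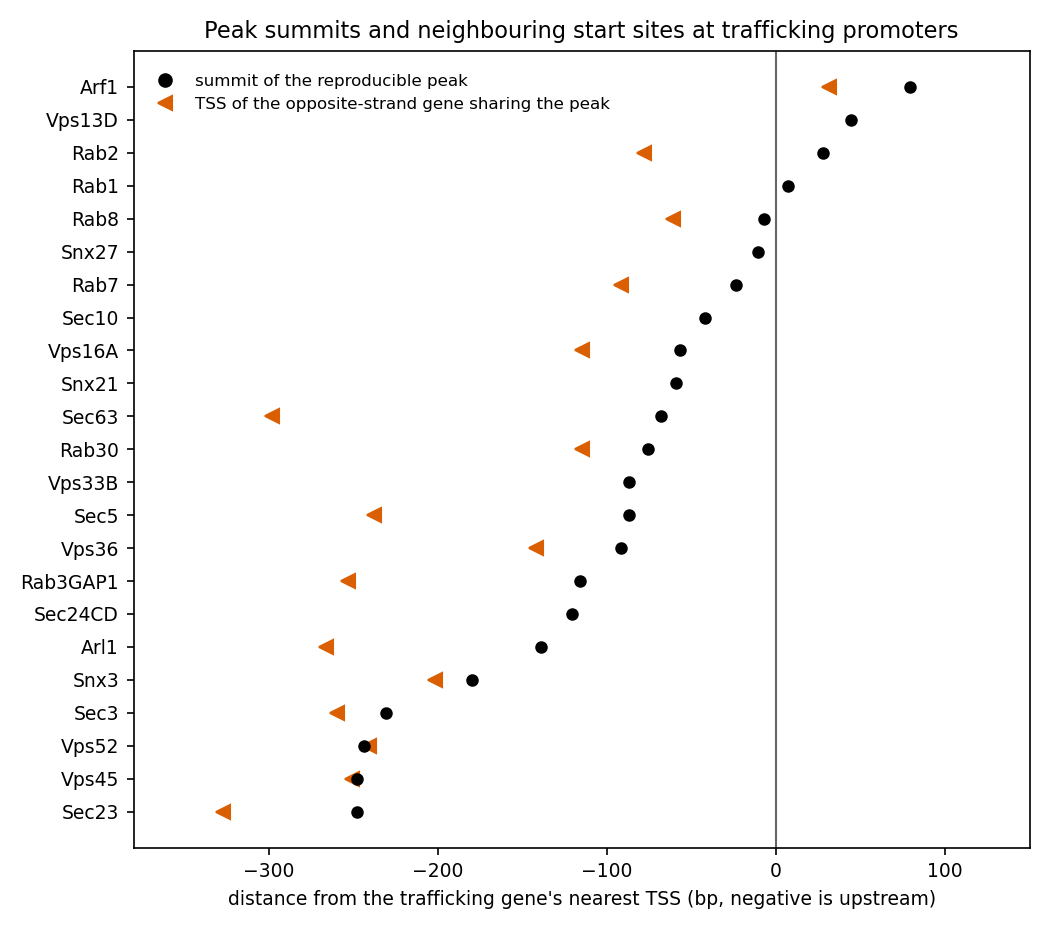
Summit of each reproducible peak (circles) and TSS of the opposite-strand gene that shares it (triangles), as distance in bp from the trafficking gene's nearest TSS, negative upstream. At 13 genes the summit falls between the start sites of a pair, and those of Sec3, Vps52, Vps45 and Sec23 lie 231 to 248 bp from the trafficking gene, close to its neighbour.

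The sequence around the summits was searched, on both strands, for 7 motifs within 100 bp of the summit. The DNA replication-related element TATCGATA (DRE), bound by the factor Dref at promoters of growth and housekeeping genes, occurred at 6 of 23 member peaks (26.1%), against 9.29% of 1357 reproducible promoter peaks and 6.44% of windows of the same length centred on protein-coding start sites. The genes were Rab2, Rab7, Rab8, Rab30, Sec63 and Vps16A, and in all 6 the centre of the element lay 14 to 48 bp upstream of the trafficking gene's TSS. All 6 peaks were shared with an opposite-strand gene, in that order Mob4, Epp, Usp32, Caper, pst and TrpRS. At Rab2 the element lay 48 bp upstream, and the Mob4 TSS was 78 bp from that of Rab2. The element can therefore not be assigned to the trafficking gene alone. The shorter CGATA, which the DRE contains, occurred at 14 peaks (60.9%, against 43.8% of promoter peaks and 37.1% of promoters). The E-box CAGCTG occurred at 7 (30.4%, against 18% and 13.4%), including Sec10 with 2 copies. The TATA box letters TATAAA occurred at 7 (30.4%, against 26.9% and 26.9%), GAGAG at 4 (17.4%, against 26.1% and 25%), GGTCACAC at 1 (4.35%, against 8.4% and 5.68%) and the E-box CACGTG at 1 (4.35%, against 4.13% and 2.8%). The word AGTGTTG, taken up after the words of these peaks had been seen, occurred at 7 (30.4%, against 13.4% and 5.25%), at Rab1, Rab3GAP1, Rab7, Rab8, Snx27, Snx3 and Vps52. These are matches of letters in small numbers of windows, with no test, and show no binding by any factor. The median GC content of the windows was 38.3% at member peaks, 40.8% at promoter peaks and 42.3% at promoters.

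The following stretches, read from the Release 6 genome sequence in RefSeq and written 5' to 3' on the trafficking gene's strand, show where these words lie. Each is the longest run within 100 bp of the summit that lies in no annotated exon, and capitals mark TATCGATA, CAGCTG and AGTGTTG or its reverse complement. The first 5 carry a DRE, Snx27 and Sec10 carry the E-box, Snx3 carries AGTGTTG, and Arl1, the strongest of the 23 peaks, carries none of the 3.
Rab8, chr3L:19871079-19871138, minus strand: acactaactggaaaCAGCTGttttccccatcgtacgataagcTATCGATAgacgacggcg
Rab7, chr3R:23992917-23993007, plus strand: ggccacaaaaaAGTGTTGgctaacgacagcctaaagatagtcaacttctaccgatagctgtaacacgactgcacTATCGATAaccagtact
Rab30, chr2L:7032607-7032720, minus strand: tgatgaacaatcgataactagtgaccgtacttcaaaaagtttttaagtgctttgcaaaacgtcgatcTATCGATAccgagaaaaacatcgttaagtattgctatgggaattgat
Vps16A, chr3R:9266905-9267018, plus strand: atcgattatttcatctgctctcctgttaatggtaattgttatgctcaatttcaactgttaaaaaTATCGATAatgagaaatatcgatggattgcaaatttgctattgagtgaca
Sec63, chr3L:7360393-7360560, plus strand: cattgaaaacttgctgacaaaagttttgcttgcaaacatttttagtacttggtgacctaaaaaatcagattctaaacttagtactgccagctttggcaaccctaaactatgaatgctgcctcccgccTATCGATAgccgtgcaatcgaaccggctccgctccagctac
Snx27, chrX:5738032-5738142, minus strand: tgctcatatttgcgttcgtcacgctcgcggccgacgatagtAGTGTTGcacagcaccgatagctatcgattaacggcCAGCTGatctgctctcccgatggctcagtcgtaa
Sec10, chr3R:24134689-24134830, plus strand: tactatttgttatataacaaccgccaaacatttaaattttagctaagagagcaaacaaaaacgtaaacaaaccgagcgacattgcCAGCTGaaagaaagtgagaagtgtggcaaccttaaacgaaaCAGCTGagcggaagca
Snx3, chr3R:12627830-12627951, plus strand: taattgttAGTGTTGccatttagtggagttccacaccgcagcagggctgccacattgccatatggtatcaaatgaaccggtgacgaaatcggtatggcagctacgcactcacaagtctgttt
Arl1, chr3L:15982896-15983096, plus strand: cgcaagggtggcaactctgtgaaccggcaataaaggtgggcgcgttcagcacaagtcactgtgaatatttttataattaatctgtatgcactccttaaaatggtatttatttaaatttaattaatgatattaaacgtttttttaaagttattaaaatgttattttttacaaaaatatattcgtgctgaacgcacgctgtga

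The members without a reproducible peak numbered 70. Of these, 28 had a candidate in the pooled and in both replicate lists, 17 in the pooled and 1 replicate list, 3 (Arl6, Rab35 and Vps11) in the pooled list only, and 12 in replicate lists only. With the genes that had a peak included, 48 of the 93 had a region in all 3 candidate lists (51.6%, against 32.6% of protein-coding genes). The 10 with no region in any list (10.8%, against 43.2% of protein-coding genes) were Arf4, Rab3, Rab3-GEF, Vps51, Vps53 and the 5 X-linked Rab9 paralogs. The 15 members next below the reproducible list had pooled signal values of 69.7 to 101 and were, in order, Sec6, Vps28, Rab32, Sec61beta, Sec8, Sec20, Arl8, Sec22, Rab11, Sec61alpha, Rab18, Arl4, Vps20, Vps13 and Sec16. Both SNAREs among the members were in this group: Sec20 ranked 3524 (4234 and 2757 in the replicates), and Sec22 ranked 3769 from widely different replicate ranks of 1845 and 17880. Rab39 stood out among members with no pooled candidate, with rank 1419 in replicate 2 and no region in replicate 1.

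Some members had reproducible summits inside the gene but away from its start. This was so for 7 of the 93 (7.53%, against 4.6% of protein-coding genes). The median gene length was 2731 bp over all 93 members and 2164 bp over all protein-coding genes. Sec61alpha had 2 in its intron, 1121 and 646 bp from its TSS, at ranks 839 and 1643. Rab14 (rank 528, 554 bp from the TSS), Rab9 (rank 522, 1884 bp), Rab5 (rank 1719, 380 bp) and Rab11 (rank 1855, 1946 bp) had 1 each in an intron. Those within Rab32 (rank 376) and Sec24AB (rank 1353) lay in exons of lncRNA:CR44284 and asRNA:CR45467. Rab32 was thus the strongest of these, with ranks of 325 and 872 in the replicates. None of these 7 genes had a reproducible peak at its own promoter. The matching share over all protein-coding genes is not given here, so no relation between the 2 kinds of peak is read from this.

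Trafficking genes with other names were examined as a further list of 148 protein-coding genes, assembled by role. A reproducible peak lay at 37 of them (25%, 95% Wilson interval 18.7 to 32.5, against 11.6% of protein-coding genes). By the first 2413 regions of 1 replicate, the count was 37 in replicate 1 (25%, against 11.2% of protein-coding genes) and 29 in replicate 2 (19.6%, against 11.4%). Unlike at the members, a share of 12.2% (18 genes) had a peak that no other gene shared, against 6.31% in the background; the difference between the lists was not tested. The strongest peaks lay at CHMP2B of ESCRT-III (signal value 658, rank 20, shared with Tcs5), which ranked 19 and 22 in the replicates, and at CenG1A, an Arf GTPase-activating protein (signal value 530, rank 32, unshared), which ranked 30 and 39. Ccz1, part of the exchange factor for Rab7, followed at rank 234 (268 and 279 in the replicates), and its partner Mon1 ranked 1489 (1384 and 2006), against 1882 at Rab7 itself. The Mon1 peak was shared with mRpS2 and the Rab7 peak with Epp.

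The counts by role stand beside a share of 11.6% over all protein-coding genes, and none was tested. Closest to that share were TRAPP and the signal recognition particle and signal peptidase genes. By role, the GTPase regulators had peaks at 8 of 23 genes, the 4 highest being CenG1A, Ccz1, ArfGAP3 (rank 798) and Rabex-5 (rank 1481). The clathrin and adaptor genes had 7 of 20, led by cm (rank 684), Clc (rank 947), AP-2sigma (rank 1395) and AP-1sigma (rank 1480). SNARE and fusion genes had 5 of 30, led by Snap29 (rank 1160), gammaSnap1 (rank 1354), Nsf2 (rank 1597) and Syx1A (rank 1885). The COPI coat had 2 of 7, alphaCOP (rank 370) and beta'COP (rank 1269). COPII and exit genes had 3 of 10, loj (rank 577), Sar1, the GTPase that starts COPII assembly (rank 1095), and p24-1 (rank 2079). ESCRT genes under other names had 3 of 10, CHMP2B, lsn (rank 1772) and shrb (rank 1919), and Golgins, Golgi tethers and adaptors had 3 of 12, Golgin245 (rank 1109), Gmap (rank 1801) and BicD (rank 2225). COG genes had 2 of 8, Cog3 (rank 1555, the peak of Sec5) and fws (rank 1958), the signal recognition particle and signal peptidase genes 2 of 13, Srp14 (rank 863) and Srp54k (rank 2012), TRAPP genes 1 of 9, Bet3 (rank 926), and the HOPS and GARP genes 1 of 4, scat (rank 641). The exocyst subunits Exo70 and Exo84 had none of 2, though both had pooled candidates. Of the peaks named here, other genes shared those at cm, AP-2sigma, AP-1sigma, Snap29, gammaSnap1, alphaCOP, loj, CHMP2B, shrb, Cog3, fws, Srp14 and Bet3. These shared peaks cannot be assigned to the trafficking gene alone.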

How the data were processed

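Both libraries, replicates 1 and 2 of the single group, were numbered as in the labels. Per the deposited read-me texts, the authors made a candidate list from each replicate's dm6 alignment with a further file, which also entered tracks named as control normalized, a pooled list from both, and a reproducible list by irreproducible discovery rate. The caller, aligner and threshold used (not given in the sources used here) could change which regions were kept. The signal value of each deposited region was used only for ranks within a list, and the summit is the region start plus the deposited offset in bp. The lists held 30000, 30000, 30000 and 2413 regions, and median widths were 290 bp (replicate 1), 376 bp (replicate 2) and 336 bp (pooled). The lists give no read counts, so the depth per sample is unknown.

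Start sites came from Ensembl release 115 for the same assembly, on 7 main chromosomes without transposable elements. A peak was assigned to every gene with a start site at most 250 bp from the summit. Replicate regions were matched to a peak as the nearest summit within 200 bp, and member ranks without a peak are those of the strongest region within 250 bp. The labels number the libraries as biological replicates. The members, roles, lists and motifs were chosen with earlier results of these data known. Of 152 listed symbols of other trafficking genes, 6 were brought to current names through RefSeq names and 3 were not matched. All members with a peak were named, with the 15 next below, up to 4 genes per role of the other list, and members with no region. Other members were named after their values were seen, as members of the same complex or family. Shares have 95% Wilson intervals (scipy 1.17.1, Python 3.11.15). Alternatives were other windows, other overlap and sharing rules, a stricter list and each replicate alone. The assignment of summits to genes was tested on simulated data. Signal tracks were not analysed here.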

Additional observations from a re-analysis of the deposited data

How the results depend on the processing

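With 1 replicate left out, 19 to 21 members had a region among the first 2413 of the other replicate. These included genes without a reproducible peak, such as Sec61beta. Over 12 alternatives for the members with a reproducible peak, their share was always above that of protein-coding genes, though close to it in 2. The count was 15 (16.1%, against 7.43% of protein-coding genes) with summits within 100 bp, 14 (15.1%, against 9.13%) by nearest TSS, 6 (6.45%, against 6.04%) in the 50% of peaks with the highest signal value, 12 (12.9%, against 6.69%) with peaks among the top regions of both replicates, and 7 (7.53%, against 6.31%) with peaks of no other gene, a rule added after seeing the data. For the other trafficking genes it was 14 (9.46%), 17 (11.5%) and 18 (12.2%) in the last 3 of these settings. The count of 12 takes any top region within 200 bp of the summit and so exceeds by Vps33B the 11 counted by the nearest region. Members with a pooled candidate numbered 56 to 82 in 8 alternatives, all within 1.5 times the reported count. Summits upstream stayed at 19 by the nearest TSS of any gene. With 50 bp on each side, CAGCTG matches went to 4, AGTGTTG to 4 and CACGTG to 0, and with 150 bp GAGAG went to 7, and the other 12 motif counts stayed within 1.5 times. The causes of these shifts were not tested. No paired analysis was possible because the series has a single group. The lists give no depth, so a missing region may only have ranked below the end of a list.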
